A study of Mus musculus with 4 samples.

Results

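Endothelial cells line every blood and lymphatic vessel, and 34 genes commonly used as their markers were followed here in mature fat cells purified from 2 fat depots of C57BL/6 mice at postnatal day 30. The 34 genes were taken by symbol from a table of 18781 genes, and all 34 were listed and passed the expression filter (at least 1 CPM in at least 2 libraries), which left 12797 genes in all. CPM is the usual read count normalized to library depth, here with a further scaling by the authors. The samples were purified dermal adipocytes from dorsal skin (2 libraries, titled dWAT) and purified inguinal adipocytes from the subcutaneous pad of the groin (2 libraries, titled sWAT). The labels give no other genotype or treatment. Nothing in them ties the replicates to different animals, and the p-values below therefore reflect the spread among these libraries alone, which may be technical. Collagenase IV and dispase II were used to loosen the tissue, and the fat cells were collected by floating them in a centrifuge. Endothelial transcripts in these libraries came with the floated fraction. Fewer endothelial cells and less RNA per endothelial cell cannot be told apart in such bulk libraries.

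Endothelial cells share a core set of genes wherever they are: receptors for VEGF and the angiopoietins, junction proteins that seal the vessel wall, and transcription factors of the ETS and SOXF families that keep the cell identity. On top of this core, vessel types differ. Capillaries and veins carry endomucin, fenestrated and other highly permeable capillaries carry the diaphragm protein PLVAP, and veins just behind the capillaries store P-selectin and, when stimulated by cytokines, display E-selectin, VCAM1 and ICAM1 to capture leukocytes. In fat, capillaries lie against nearly every adipocyte and supply fatty acids for storage. By this textbook division 27 of the genes were treated as pan-endothelial, 1 (Emcn) as a marker of capillaries and veins, 2 (Plvap and Flt4) as fenestrated or lymphatic, and 4 (Selp, Sele, Vcam1 and Icam1) as venous adhesion molecules induced by inflammation. Several of them are not confined to endothelium, since leukocytes also express Pecam1, Fli1 and Icam1, platelets hold P-selectin, and stromal cells can express Vcam1, Icam1 and Eng.

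The promoters of 19 of the 34 genes were present in the RefSeq table used here (GRCm38.p6). ETS factors such as Erg and Fli1, which are themselves among the 34, bind sites built around a GGAA core, and the longer form AGGAAG (on the other strand CTTCCT) was searched in the 250 bases before each transcription start. It was present in 12 of the 19 genes (63.2%), against 32.3% of 27025 gene symbols in the table, where a gene counts if any of its listed starts has a match. Counted by single windows, 13 of 23 member windows (56.5%) and 29.5% of 32851 windows in all held it. A match of these letters is a description of the sequence and not evidence of a bound site. All windows below hold the letters, so they do not represent the 19 genes. Clec14a and Myct1, whose depot differences did not pass, and Cldn5, with one of the largest, lack the letters and are not shown. The windows shown belong to a capillary and venous marker (Emcn), a VEGF receptor (Flt1), the 2 selectins, and Nostrin, whose depot difference did not pass the test. Each runs 5′ to 3′ towards the start site on the strand of the gene, with AGGAAG or CTTCCT in capitals.
Emcn, chr3:137340828-137341077, plus strand: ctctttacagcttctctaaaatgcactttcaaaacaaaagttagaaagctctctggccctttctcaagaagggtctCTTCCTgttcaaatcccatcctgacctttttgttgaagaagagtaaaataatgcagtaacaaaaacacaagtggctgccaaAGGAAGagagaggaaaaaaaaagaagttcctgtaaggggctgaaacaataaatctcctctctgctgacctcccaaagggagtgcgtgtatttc
Flt1, chr5:147726012-147726261, minus strand: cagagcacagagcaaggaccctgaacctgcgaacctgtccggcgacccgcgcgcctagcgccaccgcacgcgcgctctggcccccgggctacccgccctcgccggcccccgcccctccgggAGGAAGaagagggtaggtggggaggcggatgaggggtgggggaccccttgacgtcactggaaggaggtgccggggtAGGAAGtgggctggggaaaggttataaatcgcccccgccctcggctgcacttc
Selp, chr1:164115014-164115263, plus strand: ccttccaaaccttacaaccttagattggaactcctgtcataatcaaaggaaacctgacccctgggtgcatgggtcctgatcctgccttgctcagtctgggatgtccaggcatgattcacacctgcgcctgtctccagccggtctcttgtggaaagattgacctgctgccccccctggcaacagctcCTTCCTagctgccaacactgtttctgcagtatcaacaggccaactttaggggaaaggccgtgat
Sele, chr1:164047984-164048233, plus strand: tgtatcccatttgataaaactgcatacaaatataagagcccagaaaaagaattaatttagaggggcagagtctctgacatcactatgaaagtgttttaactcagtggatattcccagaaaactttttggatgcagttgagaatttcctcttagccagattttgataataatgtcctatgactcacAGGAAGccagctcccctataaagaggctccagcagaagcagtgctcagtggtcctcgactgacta
Nostrin, chr2:69135550-69135799, plus strand: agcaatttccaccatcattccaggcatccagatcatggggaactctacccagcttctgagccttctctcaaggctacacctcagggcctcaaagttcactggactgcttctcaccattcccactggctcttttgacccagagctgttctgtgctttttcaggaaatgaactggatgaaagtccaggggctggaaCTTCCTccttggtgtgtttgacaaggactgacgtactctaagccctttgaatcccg
The ETS letters occurred in windows of genes with a large depot difference (Selp) and in that of a gene whose difference did not pass (Nostrin). They were not found in the windows of Kdr, Cldn5, Clec14a, Flt4, Icam1, Myct1 or Tek. Of the other motifs searched on both strands, the SOX letters AACAAT were in 3 of the 19 genes (15.8%, against 10.9% of all symbols), the GATA letters AGATAA in 2 (10.5% against 11.4%), the Krueppel-like letters CCACACCC in 2 (10.5% against 3.68%) and a 10-letter NF-kappaB motif in 2, Egfl7 and Tm4sf1 (10.5% against 5.31%). A match of the NF-kappaB motif can share letters with CTTCCT.

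Across the 34 genes, 28 were higher in inguinal libraries, 0 were higher in dermal libraries and 6 did not pass (limma on log2(CPM + 0.5), Benjamini-Hochberg adjusted p below 0.05 over all 12797 genes, two-sided). By the same rule 8.8% of all tested genes passed as higher in inguinal libraries, and 7.56% passed in the other direction. The 0 concerns a single candidate, because 33 of the 34 estimates were negative (dermal minus inguinal) and the positive one, Plvap, had an unadjusted p = 0.0204 (limma), the 1 member higher in dermal libraries at an unadjusted p under 0.05. The count was 0 with edgeR and DESeq2 as well. The median log2 fold change of the 34 was -1.94, against 0.02 for all tested genes. In 31 of the 34 both inguinal libraries lay above both dermal libraries, a pattern that 30.1% of all tested genes showed. In Plvap the dermal libraries lay above the inguinal ones, and in Nos3 and Sox18 the libraries of the depots overlapped. Together the 34 genes took 0.0842% and 0.0923% of dermal reads and 0.254% and 0.412% of inguinal reads, from libraries of 10127125 to 12730013 reads.

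**Figure D1:**
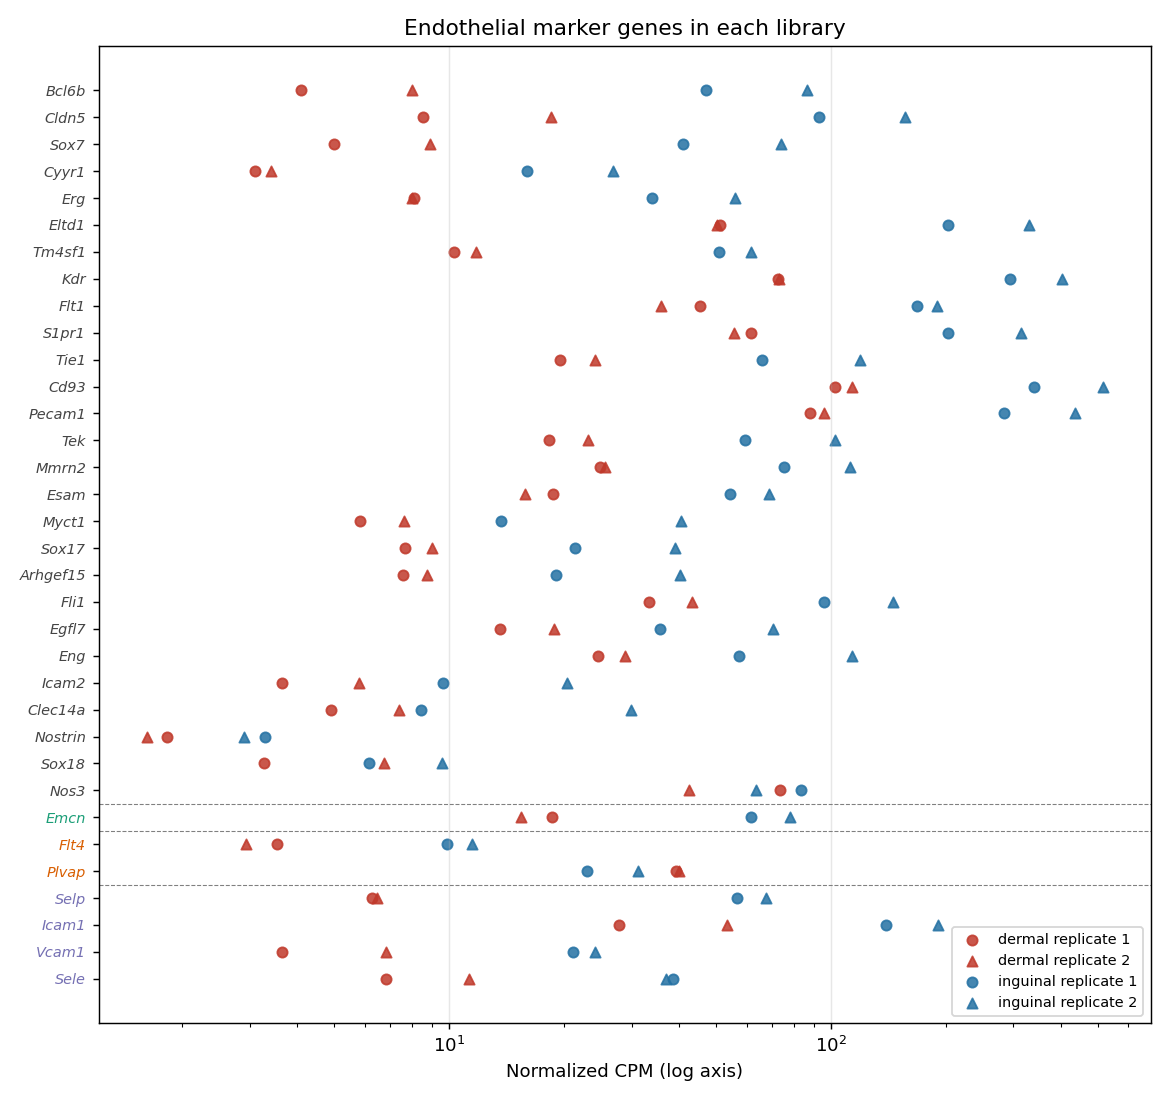
Normalized CPM (log axis) of the 34 endothelial marker genes in the 4 libraries, by class from top to bottom: pan-endothelial, capillary and venous, fenestrated and lymphatic, venous adhesion; within a class genes are ordered by their log2 fold change. Inguinal libraries (blue) lie to the right of dermal ones (red) in 31 genes, Plvap shows the opposite order, and Nos3 and Sox18 overlap.

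The receptors that endothelial cells use to respond to growth factors were higher in inguinal libraries in all 5 cases. Kdr encodes VEGFR2, the main signalling receptor for VEGF, and lies on chromosome 5, 75932827 to 75978458 (GRCm38). It stood at 72.6 and 73.0 CPM (dermal) against 293 and 402 CPM (inguinal). The groups were far apart and the dermal libraries nearly equal (log2 fold change -2.23, SE 0.17, adjusted p = 0.00168). Flt1 encodes VEGFR1, a receptor that largely acts as a trap for VEGF. It measured 45.4 and 35.9 CPM (dermal) against 167 and 190 CPM (inguinal) (log2 fold change -2.13, adjusted p = 0.00166). The angiopoietin receptor gene Tek gave 18.3 and 23.1 CPM against 59.6 and 102 CPM, and its orphan partner Tie1 gave 19.5 and 24.0 CPM against 65.7 and 119 CPM. Their log2 fold changes were -1.90 and -2.01. Flt4 encodes VEGFR3, the receptor of lymphatic endothelium that also appears on fenestrated and sprouting capillaries. It was a low transcript at 3.55 and 2.94 CPM (dermal) against 9.88 and 11.4 CPM (inguinal) (log2 fold change -1.58, SE 0.22, adjusted p = 0.00730).

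Other surface receptors followed the same order. Cd93, which encodes a C-type lectin-like receptor of endothelium, was among the most abundant members, at 102 and 113 CPM (dermal) against 339 and 514 CPM (inguinal) (log2 fold change -1.95, adjusted p = 0.00342). S1pr1, the sphingosine-1-phosphate receptor that stabilises vessel junctions, measured 61.6 and 55.7 CPM against 202 and 314 CPM (-2.10). Eltd1, an adhesion G protein-coupled receptor now called Adgrl4, measured 51.1 and 50.2 CPM against 202 and 330 CPM (-2.34). In each of these 3 genes the dermal libraries were close together and inguinal replicate 2 was the highest library. Eng, which encodes the TGF-beta co-receptor endoglin, had a smaller difference, at 24.6 and 28.8 CPM against 57.3 and 113 CPM (-1.58, SE 0.31, adjusted p = 0.0201). Clec14a, a relative of Cd93 encoded by a single exon, measured 4.92 and 7.40 CPM (dermal) against 8.44 and 29.96 CPM (inguinal). Its inguinal libraries lay above the dermal ones but 3.55-fold apart from each other, and the difference did not pass (-1.34, SE 0.55, adjusted p = 0.149). Without inguinal replicate 1 it was -2.22, and without inguinal replicate 2 it was -0.45. DESeq2 called Clec14a (adjusted p = 0.00875).

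Junction proteins held one of the largest differences of the set. Cldn5 encodes claudin-5, the main tight junction protein of endothelium, and is a single-exon gene on chromosome 16, 18776847 to 18778262. It measured 8.56 and 18.5 CPM (dermal) against 92.7 and 156 CPM (inguinal). The lowest inguinal library was above the highest dermal one although the dermal libraries differed 2.16-fold (log2 fold change -3.20, SE 0.39, adjusted p = 0.00457). Pecam1, the platelet and endothelial adhesion molecule CD31, measured 88.2 and 95.5 CPM against 283 and 435 CPM (-1.93). The immunoglobulin-type adhesion gene Esam measured 18.7 and 15.7 CPM against 54.2 and 68.7 CPM (-1.80). Icam2, a constitutive ligand for leukocyte integrins, gave 3.64 and 5.79 CPM against 9.63 and 20.4 CPM, and just passed (-1.51, SE 0.38, adjusted p = 0.0448). Icam2 no longer passed without dermal replicate 1 (-1.21, adjusted p = 0.133) and, at -0.99, missed the threshold when inguinal replicate 2 was left out (adjusted p = 0.0597). It was also lost without a filter (adjusted p = 0.0760), with a filter at 5 CPM (0.0505), with CPM of library totals (0.0676) and without the intensity trend (0.0718).

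The transcription factors spread over a wide range of differences. Bcl6b, a zinc finger repressor enriched in endothelium, had the largest log2 fold change of the 34. It lies on chromosome 11, 70224128 to 70229798, and measured 4.10 and 7.97 CPM (dermal) against 46.9 and 86.2 CPM (inguinal) (-3.36, SE 0.38, adjusted p = 0.00368). Of the SOXF factors, which act together in vessel development, Sox7 measured 5.01 and 8.92 CPM (dermal) against 40.9 and 73.9 CPM (inguinal) (-2.95, adjusted p = 0.00455). Sox17, the arterial member of that family, measured 7.65 and 9.01 CPM against 21.4 and 39.0 CPM (-1.74, adjusted p = 0.0133). Sox18 measured 3.28 and 6.74 CPM against 6.16 and 9.60 CPM. Dermal replicate 2 was above inguinal replicate 1 for Sox18, and the difference did not pass (-0.65, 95% interval -1.54 to 0.24, adjusted p = 0.278). The interval allows a Sox18 difference in either direction, and whether it differs from that of Sox7 or Sox17 was not tested. The ETS factor genes Erg and Fli1 were higher in inguinal libraries, Erg from 8.10 and 7.97 CPM in dermal to 33.9 and 55.8 CPM (-2.37) and Fli1 from 33.3 and 43.1 CPM to 95.5 and 145 CPM (-1.62). Fli1 is also expressed in blood cells.

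Secreted and smaller membrane proteins were likewise higher in inguinal libraries, with 1 exception. Egfl7, which encodes a secreted factor deposited around growing vessels and hosts the endothelial microRNA miR-126, measured 13.6 and 18.8 CPM against 35.7 and 70.5 CPM (-1.62, SE 0.33, adjusted p = 0.0227). That call ended without dermal replicate 1 (-1.39, adjusted p = 0.0534) or with no intensity trend (0.0501). Mmrn2, an endothelial matrix protein that binds CD93 and CLEC14A, measured 24.8 and 25.5 CPM against 75.3 and 112 CPM (-1.85). The tetraspanin-like gene Tm4sf1 rose from 10.3 and 11.8 CPM in dermal to 50.8 and 61.7 CPM in inguinal libraries (-2.30), and Cyyr1, a small membrane protein gene, from 3.09 and 3.42 CPM to 15.96 and 26.8 CPM (-2.50). Arhgef15 measured 7.56 and 8.73 CPM against 19.0 and 40.2 CPM (-1.71, adjusted p = 0.0219). Myct1, the exception, measured 5.83 and 7.59 CPM against 13.7 and 40.4 CPM. Its inguinal libraries stood 2.96-fold apart and it fell just short of the threshold (-1.75, SE 0.47, adjusted p = 0.0511). Myct1 passed with edgeR (adjusted p = 0.0438), with DESeq2 (9.73e-05), with quantile normalization (0.0435) and with a pseudocount of 0.1 (0.04997).

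**Figure D2:**
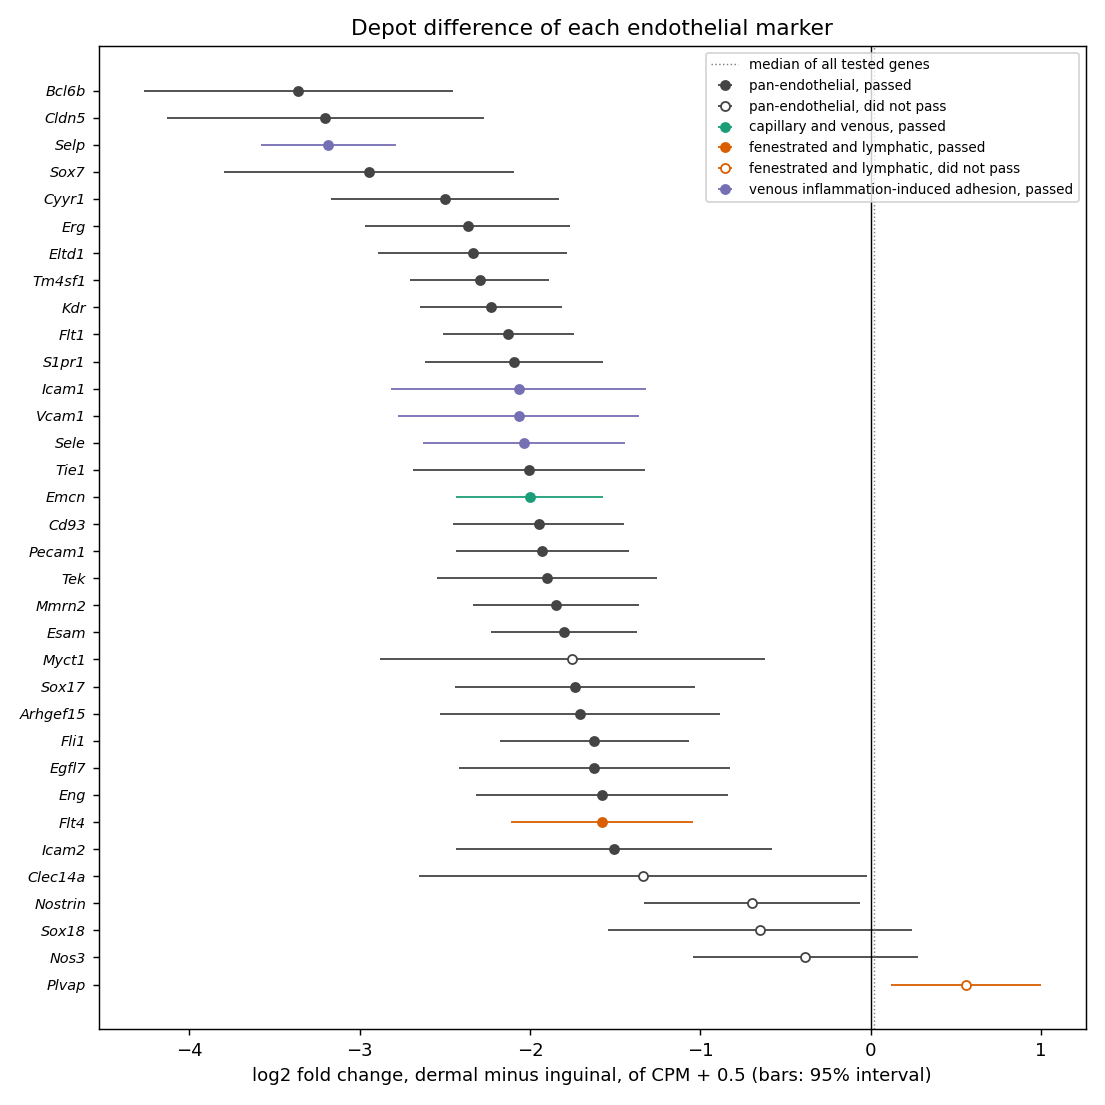
Log2 fold change (dermal minus inguinal, log2(CPM + 0.5)) of the 34 genes with 95% intervals from limma, ordered by size, filled where the adjusted p was below 0.05; the dotted line is the median of all 12797 tested genes. The estimates run from -3.36 (Bcl6b) to 0.56 (Plvap), and 33 are negative.

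Nos3 and its trafficking partner stood near the other end of the range. Nos3 encodes endothelial nitric oxide synthase, which relaxes vessels, and lies on chromosome 5, 24364810 to 24384474. It measured 73.5 and 42.3 CPM (dermal) against 83.5 and 63.7 CPM (inguinal), so that dermal replicate 1 exceeded inguinal replicate 2. The difference did not pass (log2 fold change -0.38, 95% interval -1.04 to 0.28, adjusted p = 0.381), and the interval does not reach the -1.94 that was the median of the set. Leaving out dermal replicate 1 gave -0.78, and leaving out dermal replicate 2 gave 0.0102. In Nos3 replicate 1 was the higher library in both depots, against the order seen in most members. Nos3 shares 294 exonic bases with Atg9b and 1040 with the antisense transcript Gm15587 on the opposite strand, and Atg9b itself was listed at 1.04 to 3.63 CPM. Nostrin, which encodes a protein that binds nitric oxide synthase and moves it off the membrane, was the lowest member, at 1.82 and 1.61 CPM (dermal) against 3.29 and 2.91 CPM (inguinal). The groups did not overlap, but the difference rested on 17 to 39 reads a library and did not pass (-0.70, 95% interval -1.33 to -0.07, adjusted p = 0.123). Nostrin passed with no intensity trend (adjusted p = 0.0491).

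Emcn, the marker of capillaries and veins, was higher in inguinal libraries. Endomucin is a sialic acid-rich glycoprotein of the endothelial surface that is scarce on arteries, and the gene lies on chromosome 3, 137341067 to 137432185. It measured 18.6 and 15.4 CPM (dermal) against 61.5 and 77.9 CPM (inguinal). The groups were well separated and the difference, -2.003 (SE 0.18, adjusted p = 0.00228), lay close to the median of the 34 genes.

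Plvap was the single member with a higher estimate in dermal libraries. PLVAP forms the diaphragms of fenestrae and caveolae, and the gene lies on chromosome 8, 71497765 to 71511752. It measured 39.2 and 39.9 CPM (dermal) against 22.9 and 31.2 CPM (inguinal). Both dermal libraries lay above both inguinal ones, as in 31.6% of all tested genes, and the difference did not pass (log2 fold change 0.56, SE 0.18, 95% interval 0.12 to 1.00, adjusted p = 0.0881). The log2 fold change was 0.78 without inguinal replicate 2 and 0.34 without inguinal replicate 1. Plvap passed in the first of these fits, which left a single inguinal library, and with replicate number as a block. The 28 members that passed have intervals below 0 by that selection, so their lack of overlap with the interval of Plvap adds nothing. Expressed per kilobase of exon, Plvap had the highest mean level of the 34 genes in dermal libraries, at 19.7 and 20.1 CPM per kb, although it was not separable from S1pr1 at 20.2 and 18.3 CPM per kb. In inguinal libraries it took rank 19 at 11.5 and 15.7 CPM per kb. There Cldn5 (65.5 and 110.0 CPM per kb) and S1pr1 (66.3 and 103 CPM per kb) led with overlapping values, and Cldn5 had rank 8 in dermal libraries.

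The 4 venous adhesion genes were all higher in inguinal libraries. Selp encodes P-selectin, which is stored in granules and brought to the surface within minutes, and lies on chromosome 1, 164115264 to 164150026, next to Sele at 164048234 to 164057677 on the same strand. Selp measured 6.28 and 6.45 CPM (dermal) against 56.7 and 67.5 CPM (inguinal). The libraries of each depot were close, and Selp had the smallest adjusted p of the 34 genes (log2 fold change -3.18, SE 0.17, adjusted p = 0.000664). Sele encodes E-selectin, which endothelium makes after cytokine stimulation, and measured 6.83 and 11.3 CPM against 38.4 and 36.8 CPM (-2.04, SE 0.25, adjusted p = 0.00457). Vcam1, a ligand for integrin alpha 4 on leukocytes, measured 3.64 and 6.83 CPM against 21.1 and 24.1 CPM (-2.07, adjusted p = 0.00759). Icam1, a ligand for leukocyte integrins that is widely induced by cytokines, measured 27.8 and 53.2 CPM against 139 and 190 CPM (-2.07, adjusted p = 0.00902). Sele, Vcam1 and Icam1 lay near the median of the set, and Selp together with Bcl6b, Cldn5 and Sox7 lay more than 1 log2 unit beyond it.

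Dividing each gene by the median of the 27 pan-endothelial genes in the same library shows how a member differed from the common shift. That median was 13.6 and 18.5 CPM (dermal) against 54.2 and 73.9 CPM (inguinal). Plvap stood at 2.89 and 2.16 times the median in dermal libraries and at 0.422 and 0.423 times in inguinal libraries. Selp went the other way, from 0.463 and 0.349 in dermal to 1.05 and 0.913 in inguinal libraries. For Emcn (1.37 and 0.831 in dermal, 1.134 and 1.06 in inguinal), Sele (0.503 and 0.610, 0.709 and 0.499), Vcam1 (0.268 and 0.369, 0.389 and 0.327) and Icam1 (2.05 and 2.88, 2.57 and 2.57) the depots overlapped. Flt4 overlapped too, at 0.262 and 0.159 in dermal and 0.182 and 0.155 in inguinal libraries. Of the genes that enter the median, Nos3 stood at 5.42 and 2.29 times the median in dermal and at 1.54 and 0.862 times in inguinal libraries, and Bcl6b stood at 0.302 and 0.431 in dermal and 0.864 and 1.17 in inguinal libraries. These ratios are descriptions: subtracting a shared median made 94.6% of all tested genes pass in the fit (94.4% in the dermal direction, 0.25% in the inguinal one), so its p-values were not used.

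**Figure D3:**
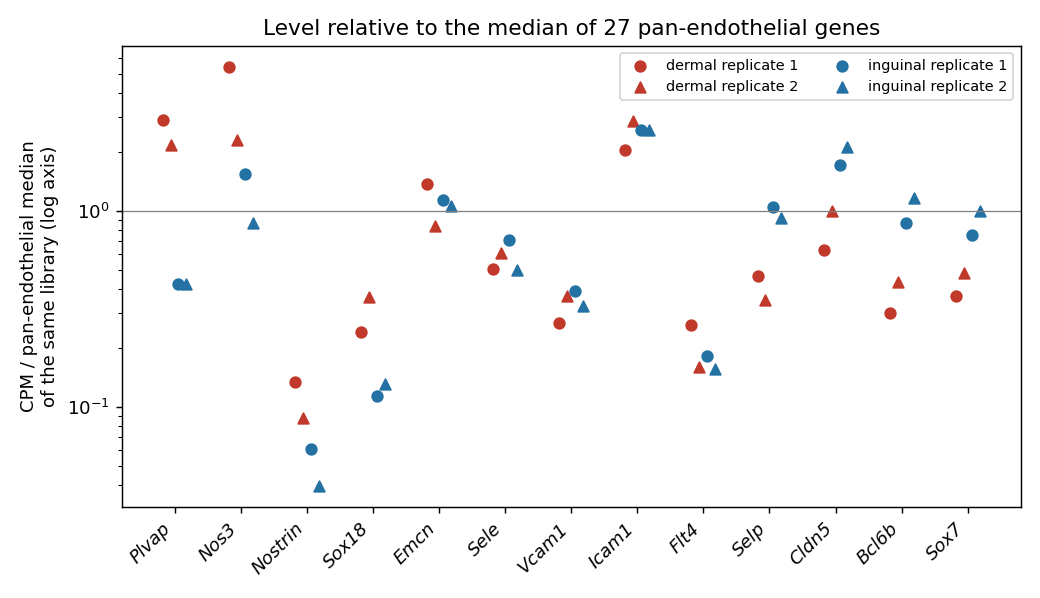
CPM divided by the median CPM of the 27 pan-endothelial genes in the same library (log axis) for members outside that class and for pan-endothelial members at the ends of the range. Plvap lies at 2.16 or more in dermal libraries and at 0.423 or less in inguinal ones, while Emcn, Sele, Vcam1, Icam1 and Flt4 overlap between depots.

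The libraries of 1 depot also differed from each other along the endothelial genes. Inguinal replicate 2 was above inguinal replicate 1 in 31 of the 34 genes, against 54.1% of all tested genes, with a median log2 difference of 0.61 (0.04 over all tested genes). The 3 exceptions were Sele, Nostrin and Nos3. The ratio of inguinal replicate 2 to replicate 1 ran from 0.763 for Nos3 to 3.55 for Clec14a. The ratio was 0.959 for Sele, 1.133 for Flt1, 1.19 for Selp and 1.37 for Kdr, and larger for Arhgef15 (2.12), Icam2 (2.11), Egfl7 (1.97) and Eng (1.97). In dermal libraries replicate 2 was higher in 25 of 34 genes, against 50.9% of all tested genes. The median log2 difference was 0.19 (0.006 over all tested genes). Across the 34 genes the ratios in the depots had a Spearman correlation of 0.49, a description over genes that share the same 4 libraries. A single library pair per depot gives no test of these differences.

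**Figure D4:**
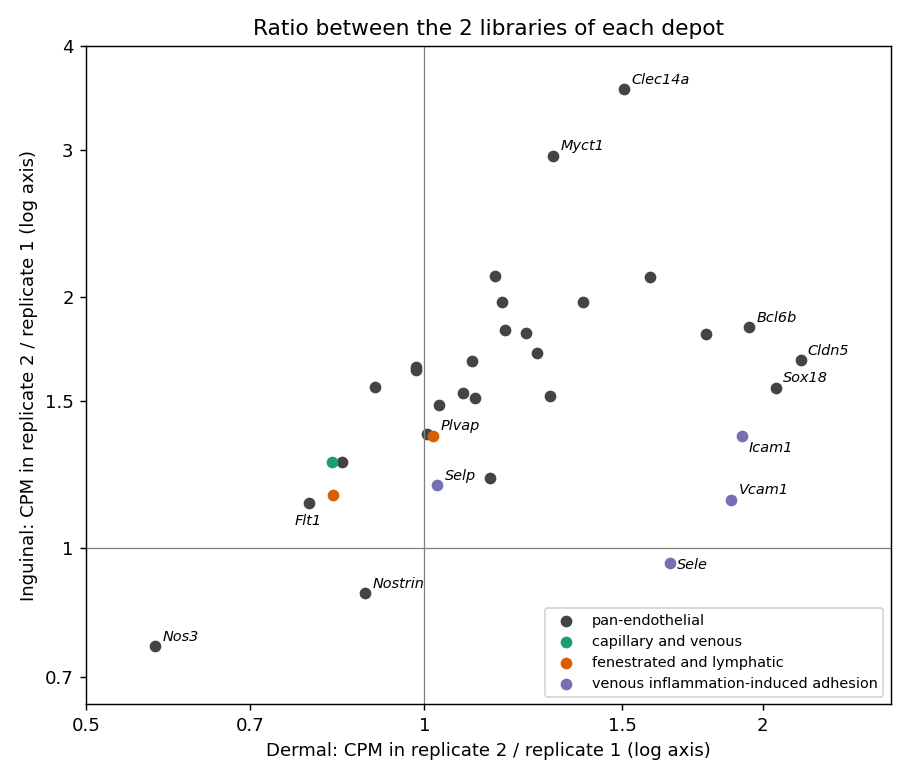
Ratio of CPM in replicate 2 to replicate 1 in the inguinal libraries (vertical, log axis) against the same ratio in the dermal libraries (horizontal, log axis) for the 34 genes, coloured by class. Clec14a (3.55) and Myct1 (2.96) lie highest on the inguinal axis and Nos3 lies lowest on both axes.

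Other genes of the vessel wall were read from lists chosen with earlier results of these data known. Of 14 further pan-endothelial genes outside the 34, 12 passed, all higher in inguinal libraries, among them Gpr116, an adhesion receptor (128 and 126 CPM in dermal, 644 and 1015 CPM in inguinal, -2.66), and the tyrosine phosphatase gene Ptprb (-2.02). Of 10 capillary genes of fat 5 passed, all higher in inguinal libraries, with a median log2 fold change of -1.11 over the 10. They included Gpihbp1, which carries lipoprotein lipase across the capillary wall (20.7 and 26.1 CPM against 95.1 and 147 CPM, -2.32), and Btnl9 (-2.70). The members of that list with the highest levels, Lpl (0.20, adjusted p = 0.590) and Cd36 (-0.26, adjusted p = 0.455), are abundant in adipocytes themselves. Of 12 arterial genes 7 passed, all higher in inguinal libraries (median -1.37 over the 12), led by the Notch ligand gene Dll4 at 4.73 and 5.41 CPM against 37.8 and 50.9 CPM (-2.997) and the ephrin gene Efnb2 (-1.97). The Notch ligand gene Jag1, the most abundant of that list, did not pass (-0.18, adjusted p = 0.585).

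Venous, sprouting and lymphatic lists were more mixed. Of 7 venous genes outside the 34, 3 were higher in inguinal libraries, which were Nrp2 (-1.02), the von Willebrand factor gene Vwf (7.37 and 5.79 CPM against 23.0 and 30.7 CPM, -1.94) and the chemokine-binding receptor gene Ackr1 (1.09 and 1.23 CPM against 10.4 and 6.50 CPM, -2.39). Nr2f2 (-0.39, adjusted p = 0.281), Ephb4 (-0.20, adjusted p = 0.672) and Aplnr (-0.92, adjusted p = 0.229) did not pass. Vwf, Ackr1, Nr2f2, Ephb4 and Aplnr are named after their values were seen. Nrp2 no longer passed without dermal replicate 1 (adjusted p = 0.0963) or dermal replicate 2 (0.0531), with CPM of library totals (0.0593) or with no intensity trend (0.0653). Lrg1, a secreted glycoprotein gene used as a venous marker, was higher in dermal libraries (373 and 277 CPM against 72.2 and 55.3 CPM, 2.34, adjusted p = 0.00197). Its dermal level was above that of the pan-endothelial gene Cdh5 (137 and 169 CPM in dermal libraries). Which cells the Lrg1 reads came from was not tested. Of 6 genes of sprouting tip cells 4 were higher in inguinal libraries, including Pgf, a ligand of Flt1, at 0.910 and 1.14 CPM against 9.71 and 11.4 CPM (-2.86), and the Tek ligand gene Angpt2 (-1.86). Of 5 lymphatic genes outside the 34, Fgl2 was higher in inguinal (-0.79, adjusted p = 0.0360) and Lyve1 higher in dermal libraries (91.1 and 48.4 CPM against 29.6 and 19.1 CPM, 1.46, adjusted p = 0.0312). Lyve1 no longer passed without dermal replicate 1 (adjusted p = 0.0835), without a filter (0.0523) or with no intensity trend (0.0653), and Fgl2 in each of 3 fits that left out dermal replicate 1 (0.0900), dermal replicate 2 (0.154) or inguinal replicate 2 (0.05004). Fgl2 was also lost without a filter (adjusted p = 0.0541), with CPM of library totals (0.0747) and with no intensity trend (0.0702). Macrophages also express Lyve1, and the defining lymphatic genes Prox1 (0.253 to 0.776 CPM) and Ccl21a (0 to 0.273 CPM) were below the filter.

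Markers of other cells that can float with adipocytes moved in both directions. Of 8 general leukocyte genes 6 and of 9 macrophage genes 8 were higher in dermal libraries, with medians of 1.15 and 1.64, opposite to the endothelial genes. Their summed levels did not overlap (leukocyte list 260 to 291 CPM in dermal and 114 to 126 CPM in inguinal libraries, macrophage list 1303 to 1396 CPM and 436 to 468 CPM). Platelet genes summed to 19.3 to 24.9 CPM in dermal and 9.04 to 9.79 CPM in inguinal libraries, mostly Pf4, which macrophages can also express, and the platelet genes Gp9 and Gp1ba were at 0 to 0.190 CPM. Globin gene copies hold identical values in pairs of rows, and with each pair counted once 4 of 5 red blood cell rows passed, higher in inguinal libraries (summed 36.7 to 63.5 CPM in dermal, 153 to 289 CPM in inguinal libraries). Pericyte genes gave 4 higher in inguinal, such as Rgs5 (-1.47), and 2 higher in dermal libraries, Cspg4 (0.94) and Mcam (0.53), of 8 tested. Cspg4 missed the threshold when dermal replicate 1 was left out (adjusted p = 0.0697), and Mcam missed it in 6 alternatives (adjusted p = 0.0510 to 0.249). Smooth muscle genes gave 5 of 6 higher in inguinal libraries, with Myh11 at -2.31. Summed levels of the pericyte list overlapped (707 to 720 and 688 to 760 CPM) and those of the smooth muscle list did not (42.9 to 47.5 and 112 to 152 CPM). The part of these cells in the endothelial result was not tested.

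**Figure D5:**
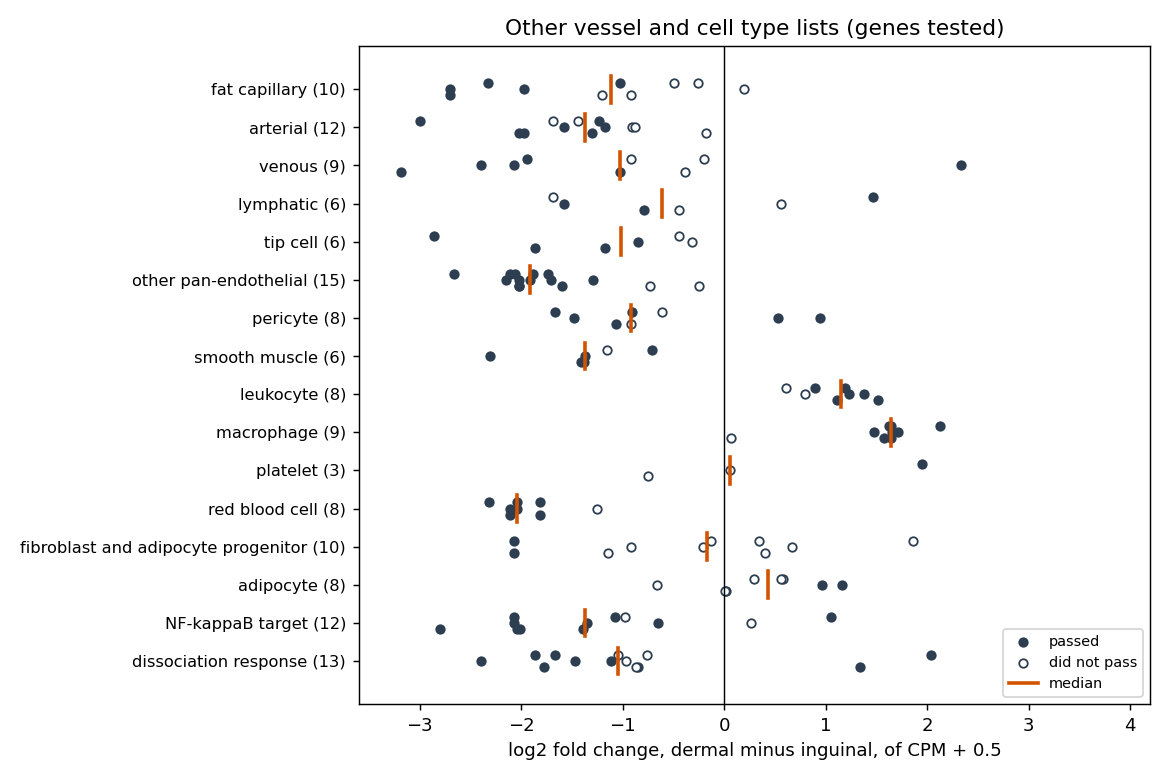
Log2 fold change (dermal minus inguinal) of each tested gene in 16 lists of other vessel and cell types, with the number tested in parentheses; filled points passed at an adjusted p below 0.05, and orange bars are list medians. Vessel lists have medians below 0, leukocyte and macrophage lists above 0. Some genes belong to more than 1 list. Endothelial members are in the NF-kappaB (3), venous (2), fibroblast (2), lymphatic (1) and other pan-endothelial (1) lists. The 2 filled points of the fibroblast list are both members.

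Lists of genes induced by cytokines and by tissue handling were read beside the venous adhesion genes. Of 9 NF-kappaB targets outside the 34, 6 were higher in inguinal libraries and 1, Cxcl2, was higher in dermal libraries. Il6 measured 16.9 and 18.0 CPM (dermal) against 127 and 122 CPM (inguinal) (-2.80), and Tnfaip3, which encodes a brake on NF-kappaB, differed by -1.35. Of 13 genes that respond to tissue dissociation 7 were higher in inguinal, such as Fosb (-2.40) and Atf3 (-1.77), and 2, the heat shock genes Hspa1a (1.34) and Hspa1b (2.04), were higher in dermal libraries. The summed levels of that list were 2169 and 3205 CPM (dermal) against 5280 and 6064 CPM (inguinal). Whether handling or cytokines had a part in the levels of Selp, Sele, Vcam1 and Icam1 was not tested. Fibroblast and progenitor genes outside the 34 gave 0 calls of 8 by limma and by edgeR and 1 by DESeq2, with 1 gene in each direction at an unadjusted p under 0.05 (limma). The summed fibroblast levels, in a list that includes Vcam1 and Icam1, were 4811 and 10488 CPM (dermal) against 3420 and 5687 CPM (inguinal) and overlapped. Adipocyte transcripts were abundant in all 4 libraries, such as Adipoq at 2965 to 3964 CPM, and of 8 such genes 2, Lep and Plin1, passed, both higher in dermal libraries. Plin1 missed the threshold when dermal replicate 2 was left out (adjusted p = 0.0850).

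The 34 genes were spread over the genome, with Sele and Selp adjacent on chromosome 1 and Icam2 and Pecam1 within the same stretch of chromosome 11 (106377656 to 106388075 and 106654217 to 106750628). By GENCODE M21, 7 of the 34 had exons overlapping a gene on the opposite strand: Sox17, Egfl7, Nos3, Eng, Selp, Vcam1 and Icam1. No source used here gives the strand setting of the counting, and reads in such overlaps may not be separable. On the same strand, exons of Cyyr1 overlapped Gm2541 over 165 bases, and exons of Egfl7 overlapped Gm20532 over 264 and Mir126a over 73. Reads in those overlaps cannot be separated by strand. For Egfl7 the opposite genes were Agpat2, a triglyceride synthesis gene listed at 503 to 995 CPM, over 64 exonic bases, and the microRNA gene Mir126b over 58. Selp overlapped Gm16548 and Gm16587 over 438 and 186 exonic bases. Across the 34 genes the log2 fold change had a Spearman correlation of -0.23 with exon length and of -0.33 with mean level, given as a description over genes measured in the same libraries.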

How the data were processed

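RNA was sequenced from 2 dermal and 2 inguinal adipocyte preparations with a stranded total RNA kit, per the labels' protocols. The submitters' processing notes name the mm10 build, TopHat2 2.0.12, featureCounts from Subread 1.4.6, Picard 1.127 and edgeR, without roles. The deposited signal values are CPM that the authors scaled by a further factor per library (0.930 to 1.04). In each library that factor equals the TMM normalization factor of edgeR, recomputed here. Every value was a whole multiple of 1 read (100% within 0.001), so reads were recovered for the alternatives, and 1 read was worth 0.0844 to 0.0969 CPM.

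Groups came from the titles. Genes with at least 1 CPM in at least 2 of 4 libraries were tested with limma 3.58.1 (R 4.3.3, intensity trend) on log2(CPM + 0.5), a scale that understates the change of low genes. P-values were adjusted by Benjamini-Hochberg over all 12797 genes. Values in the text are from single libraries, log2 fold changes are dermal minus inguinal, and an exact permutation test could not go below 0.333. On simulated counts for this comparison (12635 genes) the test recovered 38.2% of genes changed by 1 and 89.0% changed by 2 on the log2 scale, with 6.43% of calls false. The simulation gave 140 calls against 2094 in the data and drew libraries without a shift shared among genes. Its rates may therefore not hold for these data. edgeR 4.0.16 and DESeq2 1.42.0 on recovered reads, other pseudocounts, filters and scalings, a replicate block and leaving out each library were alternatives. A fit without 1 library took a gene's own spread from the other depot alone.

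All 34 members were named. Of each further list, the 2 genes with the smallest adjusted p among those that passed and the 2 with the highest mean were eligible to be named, and genes named otherwise were chosen after their values were seen. The members and lists were chosen with earlier results of these data known. Adgre1, Adgrf5 and Darc, older or newer names in the lists, matched no row. Positions and exon lengths came from GENCODE M21 (GRCm38, the same assembly as mm10), with Eltd1 matched to Adgrl4 through RefSeq synonyms, and promoter sequences from RefSeq (GRCm38.p6).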

Additional observations from a re-analysis of the deposited data

How the results depend on the processing

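Of the 34 genes, 26 to 30 were higher in inguinal libraries when any 1 library was left out and 27 to 30 under the other alternatives without a replicate block, against 28. Leaving out 1 library left a single library in that depot, so that a call gained or lost can reflect the change in spread. Same-numbered libraries share a number that the labels do not explain, and their deviations from the depot means correlated at 0.46 across genes, so that the pairing is open. With replicate number as a block, 33 members passed as inguinal-high and 1 as dermal-high. Over all genes the block gave 2342 dermal-high and 2384 inguinal-high calls, against 968 and 1126. With 1 library left out, 339 to 1212 genes were higher in dermal and 568 to 1470 in inguinal libraries. The further vessel and cell type genes gave 19 to 24 higher in dermal (24 with all libraries) and 48 to 77 higher in inguinal libraries (60).

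CPM of library totals moved the median of all genes to 0.10 on the log2 scale, from 0.02, and 33 of 34 members stayed negative. With CPM of library totals 55.6% of all calls were higher in dermal libraries, and with dermal replicate 2 left out 32.7%, against 46.2%. Estimates that changed sign or reached 0 were small: Nos3 ranged from -0.78 to 0.0102 and Jag1 from -0.42 to 0.0665 with libraries left out, and Lpl was 0.00 with quantile normalization. The fit relative to the pan-endothelial median called 94.4% of all genes in the dermal direction, so that its calls among members outside the median (1 in the dermal direction, and 0 to 1 in the inguinal direction with libraries left out) say nothing about them. With libraries left out, the log2 differences of those ratios changed sign for Emcn, Sele, Vcam1 and Icam1, with ranges of -0.39 to 0.31, -0.32 to 0.18, -0.297 to 0.0930 and -0.35 to 0.14. The cause of these changes was not tested. Nostrin had the fewest reads of the members, at 17 to 39 a library.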
